A study of Mus musculus with 6 samples.

Results

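The genes described here make, store and burn fatty acids: 39 of the 24421 gene symbols in a table of messenger RNA levels. Picked by name, the 39 were chosen with earlier results of these data known. They cover 2 transcription factors, 6 genes of acetyl-CoA supply and fatty acid synthesis, 4 desaturases, 3 elongases, 4 acyl-CoA synthetases, 4 genes of glyceride synthesis, 4 of lipid droplets and lipolysis, 3 of mitochondrial import, 5 of the beta-oxidation spiral and 4 auxiliary oxidation enzymes. RNA was sequenced from 3 murine pancreatic ductal adenocarcinoma cell lines, 2838c3, 6499c4 and 6419c5, kept in medium with serum. Cells of each line received 250 nM G-1, a synthetic compound that activates the membrane oestrogen receptor GPER, or its solvent DMSO (vehicle), and RNA was taken after 16 hours. There was 1 library per line and treatment, so 3 G-1 and 3 vehicle libraries. Each line is a single cell line grown without host cells, and nothing says how many cultures stand behind a library. Levels are FPKM, reads per kilobase of gene length on a scale that the authors set for each library.

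Fatty acids are built in the cytosol from acetyl-CoA, then lengthened and given double bonds in the endoplasmic reticulum. Activated as acyl-CoA, they can be joined to glycerol and kept in lipid droplets, or carried into mitochondria on carnitine and shortened step by step by beta-oxidation. The transcription factor SREBP-1, product of Srebf1, drives many genes of synthesis and desaturation, and the fatty acid sensor PPAR alpha, product of Ppara, drives many genes of oxidation, as known chiefly from liver.

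Reads in genes ranged from 5455990 to 8890821 per library. All 8 duct and epithelial markers examined averaged at least 1 FPKM over all libraries. Their summed levels were 3536 to 5965 FPKM in G-1 libraries and 3534 to 6102 FPKM in vehicle libraries. By line, Epcam averaged 0.710 FPKM in 2838c3 and Sox9 0.801 FPKM in 6499c4. Of 7 adipocyte markers, 5 (Adipoq, Lep, Plin1, Cfd and Retn) were at 0 in every library, and the list summed to 0.427 to 6.88 FPKM in G-1 libraries and 0.814 to 8.09 FPKM in vehicle libraries, with Cidec the member above 1 FPKM. No fibroblast, immune or endothelial marker averaged 1 FPKM over all libraries, and of 8 acinar and endocrine markers only Cela1 did. In 6419c5 alone, the endothelial marker Cdh5 averaged 1.30 FPKM. Gper1, which encodes the receptor for G-1, had 0 reads in each library, which allows up to 3 reads.

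Of the 39 genes, 37 averaged at least 1 FPKM and entered the tests. The exceptions were Ppara, with 3 to 9 reads in G-1 libraries and 5 to 13 in vehicle libraries, and Acacb, the acetyl-CoA carboxylase tied to mitochondria, with 0 to 9 reads in G-1 libraries and 1 to 5 in vehicle libraries. In 6499c4 Acacb had 9 reads with G-1 and 1 with vehicle, while 2838c3 had 5 with either and 6419c5 had 0 with G-1 and 3 with vehicle. Neither gene was tested at this depth. The highest of the 39 in every library was Scd2, a stearoyl-CoA desaturase that puts the first double bond into saturated fatty acids, at 229 to 624 FPKM. Acsl5, an acyl-CoA synthetase, and Plin2, a droplet coat protein, came next by mean level at 157 to 219.7 and 109 to 203 FPKM.

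**Figure D1:**
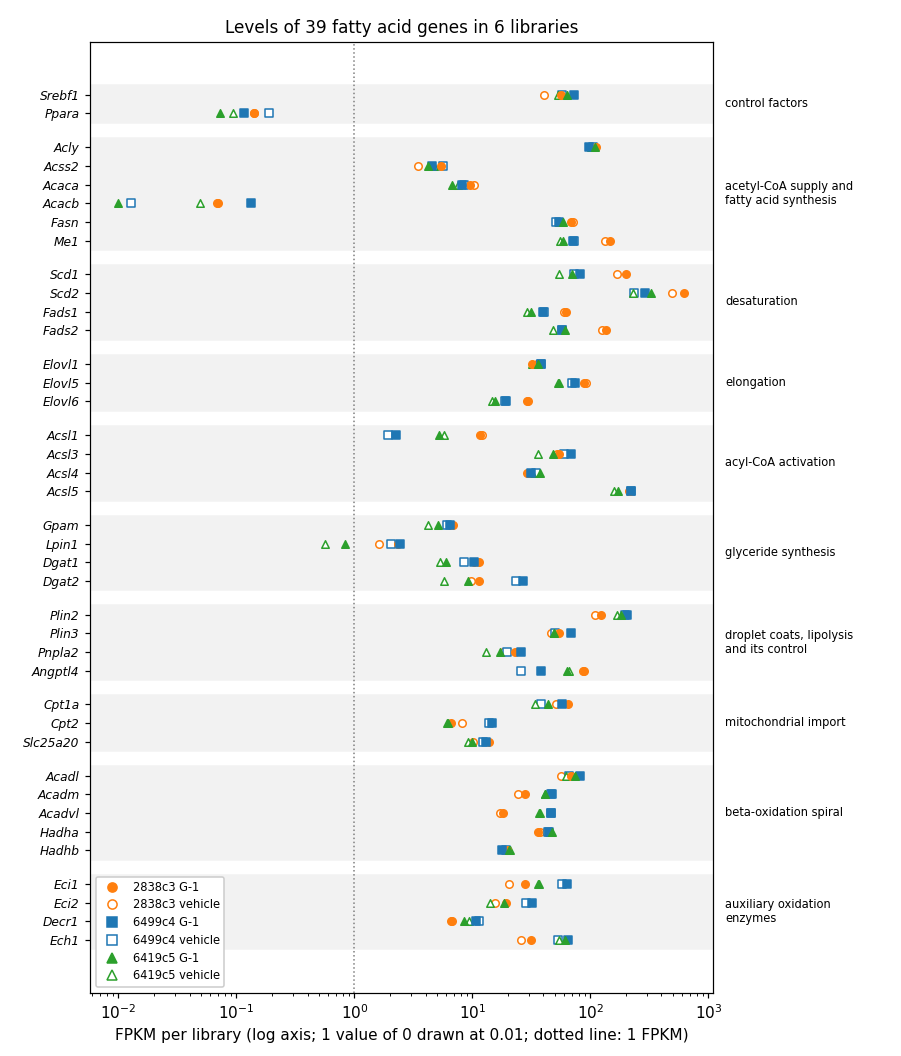
FPKM on a log axis for the 39 genes in 6 libraries, grouped by step, with 1 point per library (filled, G-1; open, vehicle; colour and shape, cell line; 1 value of 0 drawn at 0.01). Scd2 lies furthest right at 229 to 624 FPKM, and Ppara and Acacb lie left of the dotted line at 1 FPKM.

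Within families, one member often made up most of the FPKM sum. Scd2 gave 74.5% to 82.5% of the sum of Scd1 and Scd2 over the 6 libraries. Any reads that match both genes may have been split in a way that is not stated. Acsl5 gave 65.2% to 69.8% of the 4 acyl-CoA synthetases, and Elovl5, the elongase of polyunsaturated fatty acids, 51.0% to 59.1% of the 3 elongases. Acaca, the cytosolic carboxylase that makes malonyl-CoA, gave at least 98.4% of Acaca plus Acacb in each library. Dgat1 and Dgat2, the unrelated enzymes that finish triglycerides, split differently by line. Dgat2 gave 72.3% with G-1 and 73.1% with vehicle in 6499c4, 50.1% and 48.8% in 2838c3, and 60.7% and 52.3% in 6419c5. These shares are descriptions without a test.

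The first question was what G-1 did to these genes. No member passed the test across lines: limma on log2(FPKM + 1), with cell line as block and p-values adjusted over all 10748 genes tested, called 0 of 37 members at 0.05, against 3 genes in all, or 0.0279% (0.00930% higher and 0.0186% lower). Unadjusted p was below 0.05 for 11 members and for 1081 genes of the table. A second fit on whole reads recovered from the FPKM, limma-voom, which weights each value by its depth, called 6 members, each higher with G-1: Srebf1, Scd1, Scd2, Pnpla2, Cpt1a and Acadl. It called 165 genes in all, or 1.54%, with 1.02% as higher and 0.512% as lower. With a further correction for GC content and gene length it called Srebf1, Scd1, Scd2 and Cpt1a, against 0.318% of genes. In limma-voom without that correction, leaving out 6419c5 reduced the 6 members called to 3 (Srebf1, Scd2 and Cpt1a). Leaving out 2838c3 reduced them to 4 (these 3 and Acsl3), and leaving out 6499c4 to 4 (these 3 and Scd1). Of all 10748 genes, 64 were called higher and 25 lower without 6419c5. The counts were 104 and 28 without 2838c3, and 32 and 20 without 6499c4. With 3 pairs of libraries, p-values measure only the spread between these lines, which may be technical in part. Levels scaled per library give neither the number of cells nor the total RNA per cell.

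The direction of the small differences leaned one way. G-1 was above vehicle in all 3 lines for 17 of the 37 members, below in all 3 for 2 (Acaca and Decr1), and mixed for 18, where 15.4% of all genes were higher in every line and 17.5% lower. The members' median difference was 0.11 on the log2(FPKM + 1) scale and that of all genes -0.01. By step, the median was 0.21 for the 4 desaturases, 0.21 for the 4 glyceride genes, 0.20 for droplets and lipolysis, 0.19 for import and 0.22 for the auxiliary enzymes. It was 0.04 for synthesis, 0.01 for elongation, 0.04 for activation and 0.04 for the spiral.

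**Figure D2:**
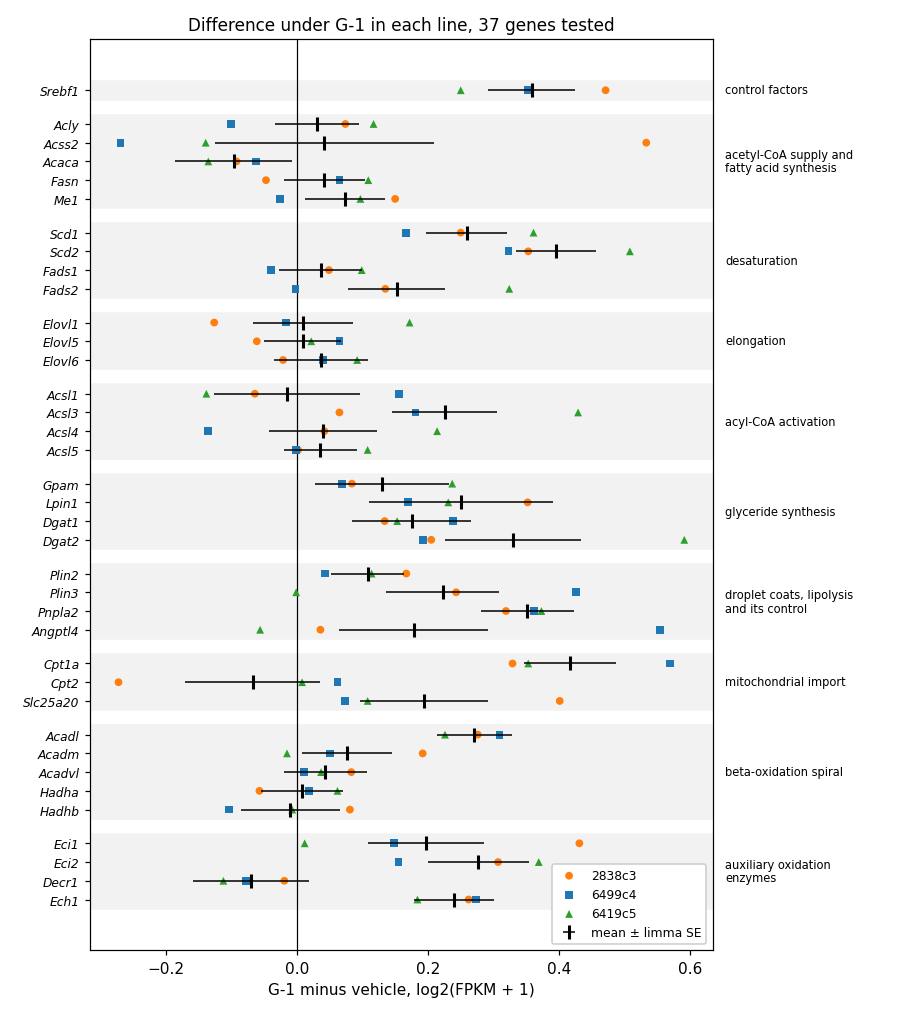
G-1 minus vehicle in log2(FPKM + 1) for the 37 members tested, with 1 point per line and a black bar for the mean ± limma SE. All 3 points of Srebf1, Scd1, Scd2, Pnpla2, Cpt1a and Acadl lie right of 0, as do those of the 4 glyceride genes, while those of Acaca and Decr1 lie left of it.

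Srebf1 was higher with G-1 in each line. It had 56.6 FPKM with G-1 and 40.5 FPKM with vehicle in 2838c3, 72.9 and 56.9 FPKM in 6499c4, and 62.9 and 52.8 FPKM in 6419c5. Over lines the ranges overlapped, since 6499c4 with vehicle stood above 2838c3 with G-1. The difference was 0.36 (SE 0.066) on the log2 scale, with an adjusted p of 0.236 in limma on FPKM and 0.00117 in limma-voom. Scaled as the authors scaled their FPKM, the read ratio of G-1 to vehicle was 1.40 in 2838c3 (95% interval 1.31 to 1.49), 1.28 in 6499c4 (1.21 to 1.36) and 1.19 in 6419c5 (1.11 to 1.28). These exact binomial intervals, here and for the genes that follow, cover counting error only, not variation between cultures.

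In the synthesis step, no gene was called by either fit. Acly, which cleaves citrate to cytosolic acetyl-CoA, had 111 and 106 FPKM with G-1 and vehicle in 2838c3, 97.8 and 105 FPKM in 6499c4, and 109.9 and 101 FPKM in 6419c5. Fasn, the synthase that assembles palmitate, had 68.9 FPKM with G-1 and 71.2 FPKM with vehicle in 2838c3, 53.8 and 51.4 FPKM in 6499c4, and 58.8 and 54.5 FPKM in 6419c5. In both genes the sign differed between lines and the ranges overlapped, with log2 differences of 0.03 (SE 0.064) and 0.04 (SE 0.062). Acaca was slightly lower with G-1 in every line, at 9.55 against 10.2 FPKM in 2838c3, 8.09 against 8.49 FPKM in 6499c4 and 6.71 against 7.47 FPKM in 6419c5. Its difference of -0.10 (SE 0.089) did not pass (limma, adjusted p = 0.741), and none of its 3 read-ratio intervals lay apart from 1. Me1, the malic enzyme that supplies NADPH, differed by 0.07 (SE 0.061). Acss2, which makes acetyl-CoA from acetate, had 5.46 FPKM with G-1 and 3.47 FPKM with vehicle in 2838c3. It had 4.53 and 5.67 FPKM in 6499c4 and 4.21 and 4.74 FPKM in 6419c5. Its read ratio was 1.58 (1.19 to 2.10) in 2838c3. The intervals of 6499c4 (0.616 to 1.04) and 6419c5 (0.638 to 1.23) included 1.

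Among desaturases, both stearoyl-CoA desaturases were higher with G-1 in each line. Scd2 had 624 FPKM with G-1 and 489 FPKM with vehicle in 2838c3, 291 and 233 FPKM in 6499c4, and 327 and 229 FPKM in 6419c5. Its read ratio was 1.28 (1.26 to 1.30), 1.25 (1.22 to 1.28) and 1.42 (1.38 to 1.47) in 2838c3, 6499c4 and 6419c5, the log2 difference 0.39 (SE 0.061), and the adjusted p 0.206 in limma on FPKM and 1.05e-05 in limma-voom. Scd1 had 199 FPKM with G-1 and 168 FPKM with vehicle in 2838c3, 82.3 and 73.2 FPKM in 6499c4, and 69.3 and 53.7 FPKM in 6419c5. All 3 of its read ratios, 1.19, 1.12 and 1.29 in the same order of lines, had intervals above 1, and its adjusted p was 0.302 in limma on FPKM and 0.0158 in limma-voom. In both genes the treatment groups overlapped, since 2838c3 with vehicle stood above the other lines with G-1. For Scd1, 6499c4 with vehicle, at 73.2 FPKM, also stood above 6419c5 with G-1, at 69.3 FPKM. Fads1 and Fads2, the delta-5 and delta-6 desaturases of polyunsaturated fatty acids, differed by 0.04 (SE 0.063) and 0.15 (SE 0.074), and in 6499c4 neither was higher with G-1. The summed FPKM of the 4 desaturases was 1022 with G-1 and 840.1 with vehicle in 2838c3, 471 and 404 in 6499c4, and 488 and 361 in 6419c5.

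No elongase had the same sign in all lines: Elovl1, Elovl5 and Elovl6 differed by 0.01, 0.01 and 0.04. Of the acyl-CoA synthetases, Acsl3, a droplet-associated form, was higher in each line with unequal sizes. Its FPKM was 54.0 with G-1 and 51.6 with vehicle in 2838c3, 67.9 and 59.7 in 6499c4, and 48.4 and 35.7 in 6419c5, a log2 difference of 0.23 (SE 0.080; limma, adjusted p = 0.436). Acsl1, Acsl4 and Acsl5 differed by -0.02, 0.04 and 0.04 with mixed signs.

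All 4 genes of glyceride synthesis were higher with G-1 in all 3 lines, and none passed either fit. Dgat2 had 11.4 FPKM with G-1 and 9.76 FPKM with vehicle in 2838c3, 26.7 and 23.2 FPKM in 6499c4, and 9.22 and 5.78 FPKM in 6419c5 (log2 difference 0.33, SE 0.104; limma, adjusted p = 0.389). The largest gap was in 6419c5, where the read ratio was 1.59 with a wide interval of 1.20 to 2.12, from 113 reads with G-1 and 93 with vehicle. Lpin1, the phosphatidate phosphatase that makes diacylglycerol, had 2.33 and 1.61 FPKM with G-1 and vehicle in 2838c3, 2.42 and 2.04 FPKM in 6499c4, and 0.834 and 0.562 FPKM in 6419c5, on 23 to 114 reads per library. Gpam, the mitochondrial enzyme that attaches the first acyl chain to glycerol phosphate, differed by 0.13 (SE 0.102) and Dgat1 by 0.18 (SE 0.090).

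On the side of release, Pnpla2, which encodes the triglyceride lipase ATGL, was higher with G-1 by a similar factor in each line. It had 22.9 FPKM with G-1 and 18.2 FPKM with vehicle in 2838c3, 25.7 and 19.8 FPKM in 6499c4, and 17.2 and 13.1 FPKM in 6419c5. Read ratios were 1.26 (1.11 to 1.44), 1.30 (1.15 to 1.47) and 1.32 (1.10 to 1.57) in 2838c3, 6499c4 and 6419c5. The log2 difference was 0.35 (SE 0.071), with an adjusted p of 0.287 in limma on FPKM and 0.0333 in limma-voom. The coat genes differed less evenly. Plin2 was higher by 0.11 (SE 0.056), and Plin3 had 54.5 and 45.9 FPKM with G-1 and vehicle in 2838c3, 68.2 and 50.5 FPKM in 6499c4, and 49.2 FPKM with either in 6419c5. Angptl4, a secreted inhibitor of lipoprotein lipase and a known PPAR target, was apart mainly in 6499c4, at 38.5 FPKM with G-1 against 25.9 FPKM with vehicle. It had 88.1 and 85.9 FPKM in 2838c3 and 63.0 and 65.5 FPKM in 6419c5. Its read ratio in 6499c4 was 1.49 (1.31 to 1.68), while the intervals of the other two lines included 1.

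Of the genes that bring fatty acids into mitochondria, Cpt1a, the outer-membrane carnitine palmitoyltransferase that is inhibited by malonyl-CoA, was higher with G-1 throughout. It had 64.2 FPKM with G-1 and 50.9 FPKM with vehicle in 2838c3, 57.4 and 38.4 FPKM in 6499c4, and 43.4 and 33.8 FPKM in 6419c5. Read ratios were 1.26 (1.19 to 1.34), 1.50 (1.40 to 1.60) and 1.29 (1.18 to 1.40) in 2838c3, 6499c4 and 6419c5. With 0.42 (SE 0.071) its log2 difference was the largest of the 37 members, with an adjusted p of 0.216 in limma on FPKM and 0.000327 in limma-voom. Its partners differed unevenly between lines. Cpt2, the inner-membrane transferase, had 6.58 FPKM with G-1 and 8.16 FPKM with vehicle in 2838c3, and Slc25a20, the carnitine carrier, had 13.7 and 10.2 FPKM there, both on 132 to 209 reads. In the other two lines their FPKM with G-1 was above vehicle by at most 0.11 on the log2 scale.

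In the spiral, Acadl, the long-chain acyl-CoA dehydrogenase, was the member whose treatment groups did not overlap. It had 68.9, 81.5 and 73.4 FPKM with G-1 in 2838c3, 6499c4 and 6419c5, against 56.8, 65.6 and 62.6 FPKM with vehicle. All G-1 libraries lay above all vehicle libraries, which held for 1 of 37 members and for 1.02% of all genes. Read ratios were 1.21 (1.11 to 1.33), 1.24 (1.15 to 1.35) and 1.17 (1.06 to 1.29), the log2 difference was 0.27 (SE 0.057), and the adjusted p was 0.288 in limma on FPKM and 0.0329 in limma-voom. Acadm and Acadvl, the medium-chain and very-long-chain dehydrogenases, differed by 0.08 and 0.04, and Hadha and Hadhb, the subunits of the trifunctional protein, by 0.01 and -0.01. The share of Acadl in the FPKM of the 3 dehydrogenases was 60.0% with G-1 and 57.9% with vehicle in 2838c3, 46.4% and 41.6% in 6499c4, and 48.3% and 44.5% in 6419c5.

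The auxiliary enzymes deal with double bonds that the spiral cannot pass. Ech1, a dienoyl-CoA isomerase, had 31.1 FPKM with G-1 and 25.8 FPKM with vehicle in 2838c3, 64.2 and 53.0 FPKM in 6499c4, and 61.3 and 53.9 FPKM in 6419c5 (log2 difference 0.24, SE 0.061; limma, adjusted p = 0.340). Eci2, an enoyl-CoA isomerase, had 19.4 and 15.5 FPKM with G-1 and vehicle in 2838c3, 31.7 and 28.4 FPKM in 6499c4, and 18.4 and 14.0 FPKM in 6419c5 (0.28, SE 0.077; adjusted p = 0.363). Eci1, its mitochondrial relative, was 0.43 higher in 2838c3 but 0.01 in 6419c5. Decr1, the dienoyl-CoA reductase, was the exception, at 6.61 against 6.71 FPKM in 2838c3, 10.7 against 11.4 FPKM in 6499c4 and 8.50 against 9.27 FPKM in 6419c5. That difference of -0.07 (SE 0.089) was smaller than its standard error.

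**Figure D3:**
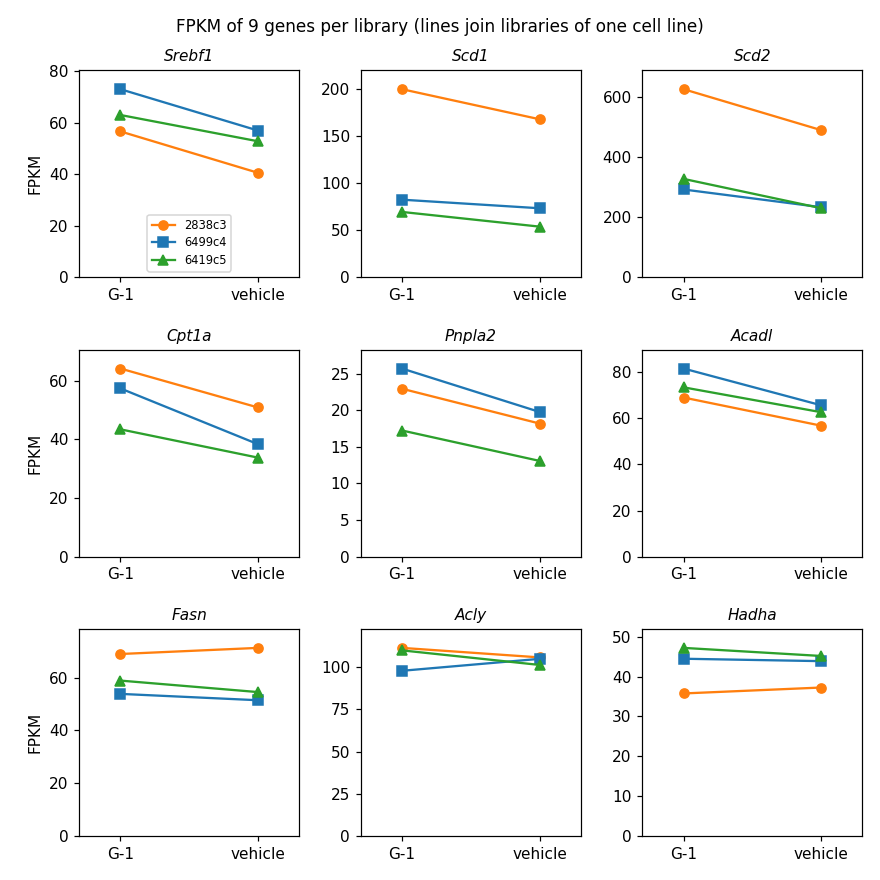
FPKM on axes that start at 0 for 9 genes, with G-1 at the left and vehicle at the right of each panel and a line joining the libraries of one cell line. The upper 6 panels, the members called by limma-voom, slope down to vehicle in all 3 lines, while Fasn, Acly and Hadha in the bottom row have lines of both slopes.

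The 6 members that limma-voom called were examined for their upstream sequence. RefSeq promoter windows of GRCm38.p6, from 250 bases before to 50 after a transcript start, were at hand for Srebf1, Cpt1a, Pnpla2 and Acadl, and for 32 of the 39 members in all. Fads1, Decr1, Scd1, Scd2, Dgat1, Dgat2 and Angptl4 had none. Of the 3 windows of Srebf1, the one at chr11:60210422-60210721 is shown. Fasn is added as a member whose level barely differed. The windows are printed 5′ to 3′ on the strand of the gene, and capitals mark every match to the motifs searched.
Srebf1 (chr11:60210422-60210721, minus strand): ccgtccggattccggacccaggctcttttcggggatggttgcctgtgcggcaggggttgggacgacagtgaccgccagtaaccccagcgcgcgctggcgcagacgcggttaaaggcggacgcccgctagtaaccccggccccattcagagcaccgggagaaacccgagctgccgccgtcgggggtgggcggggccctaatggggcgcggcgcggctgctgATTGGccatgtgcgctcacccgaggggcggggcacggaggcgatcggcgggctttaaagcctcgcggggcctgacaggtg
Cpt1a (chr19:3323051-3323350, plus strand): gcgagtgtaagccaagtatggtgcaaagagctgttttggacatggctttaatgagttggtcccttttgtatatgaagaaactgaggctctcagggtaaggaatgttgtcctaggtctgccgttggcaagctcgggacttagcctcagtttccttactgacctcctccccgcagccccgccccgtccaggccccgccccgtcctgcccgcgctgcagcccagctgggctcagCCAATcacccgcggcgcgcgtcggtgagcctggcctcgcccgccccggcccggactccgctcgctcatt
Pnpla2 (chr7:141454938-141455237, plus strand): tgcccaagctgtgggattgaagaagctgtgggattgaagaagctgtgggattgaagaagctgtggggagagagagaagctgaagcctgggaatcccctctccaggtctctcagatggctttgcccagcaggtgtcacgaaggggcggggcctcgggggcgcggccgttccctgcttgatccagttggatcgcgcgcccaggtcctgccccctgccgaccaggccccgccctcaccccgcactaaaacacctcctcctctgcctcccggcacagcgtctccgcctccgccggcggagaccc
Acadl (chr1:66863260-66863559, minus strand): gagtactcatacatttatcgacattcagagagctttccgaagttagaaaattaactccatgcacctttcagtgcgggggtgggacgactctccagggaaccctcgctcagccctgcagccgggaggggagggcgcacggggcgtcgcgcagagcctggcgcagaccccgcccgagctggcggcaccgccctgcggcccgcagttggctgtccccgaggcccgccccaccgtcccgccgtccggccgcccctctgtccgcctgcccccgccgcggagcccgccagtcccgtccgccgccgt
Fasn (chr11:120824498-120824797, minus strand): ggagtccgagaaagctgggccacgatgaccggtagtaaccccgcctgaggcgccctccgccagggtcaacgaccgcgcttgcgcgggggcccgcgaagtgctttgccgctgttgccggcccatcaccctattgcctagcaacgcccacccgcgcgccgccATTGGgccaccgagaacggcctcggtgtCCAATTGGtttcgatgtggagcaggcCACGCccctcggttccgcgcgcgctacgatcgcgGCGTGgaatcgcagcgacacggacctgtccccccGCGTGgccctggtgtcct

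Motifs were searched as exact letters on both strands, and a match is a description of the letters, not of binding. The NF-Y box CCAAT, whose factor works with SREBP at many lipid promoters, was in 17 of the 38 windows of members, from 16 genes, and in 37.4% of all 32851 windows. Among the 5 windows above it was in those of Srebf1, Cpt1a and Fasn, where Fasn holds CCAAT and ATTGG overlapping each other. Of the Srebf1 windows not shown, the one at chr11:60222532-60222831 held CCAAT. The one at chr11:60220578-60220877 had no match to any motif searched. The E-box CACGTG was in 2 of the 38 (Elovl5 and Plin2) and 7.15% of windows, and TCACNCCAC, a form of the sterol regulatory element, in 1 of the 38 (Acsl1) and 1.24% of windows. GCGTG, the core bound by the aryl hydrocarbon receptor, was in 18 of the 38, that of Fasn among them, and in 32.4% of windows. The direct repeat bound by PPAR, AGGTCA copied with 1 base between the copies, was in 0 of the 38 and in 0.0396% of windows. Pnpla2 and Acadl had no match to these letters within their windows.

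Beyond the 39, 134 other genes of the same pathways were listed, and 87 of them averaged at least 1 FPKM. Limma on FPKM called 0 of the 87 under G-1 and limma-voom 3, each higher, Slc25a1 and Acaa2 among them. G-1 was above vehicle in all 3 lines for 31 and below for 2 (Oxsm and Agpat5), against 15.4% and 17.5% of all genes, with a median difference of 0.04. Slc25a1, the carrier that exports the citrate used by Acly, had 103.5 FPKM with G-1 and 85.2 FPKM with vehicle in 2838c3, 114 and 85.1 FPKM in 6499c4, and 181 and 161 FPKM in 6419c5 (0.29, SE 0.065). Acaa2, the thiolase that ends a turn of the spiral, had 22.5 FPKM with G-1 and 16.0 FPKM with vehicle in 2838c3, 54.3 and 38.0 FPKM in 6499c4, and 42.4 and 37.1 FPKM in 6419c5 (0.39, SE 0.081). Etfb, a subunit of the flavoprotein that takes electrons from the dehydrogenases, was higher in each line by 0.35 (SE 0.061), and Insig1, which holds SREBP in the endoplasmic reticulum, by 0.22 (SE 0.070), and neither passed either fit.

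The second question was how the lines differ in these genes. Lines were compared in pairs from 2 libraries each, with treatment as covariate, and since the pairs share libraries the comparisons are not independent of each other. The 2 libraries of a line are its G-1 and vehicle libraries, so no line had a replicate at the same treatment. The p-values between lines therefore do not measure the spread between cultures of a line treated alike. Differences between these lines are common over the whole table. How many genes of the table have both libraries of a line apart from all others was not counted. Of the 37 members, 27 were called in 2838c3 against 6419c5 (19 higher and 8 lower), where 51.5% of all genes were called, 25.3% as higher and 26.2% as lower. Against 6499c4, 23 were called in 2838c3 (11 higher and 12 lower), where 55.6% of genes were called, 28.9% as higher and 26.6% as lower. Finally, 20 were called in 6499c4 against 6419c5 (18 higher and 2 lower), where 45.0% of genes were called, 21.3% as higher and 23.7% as lower. Without the vehicle library of 6419c5, which leaves that line a single library, fewer members were called in that last pair. Fewer genes of the whole table were called there as well.

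**Figure D4:**
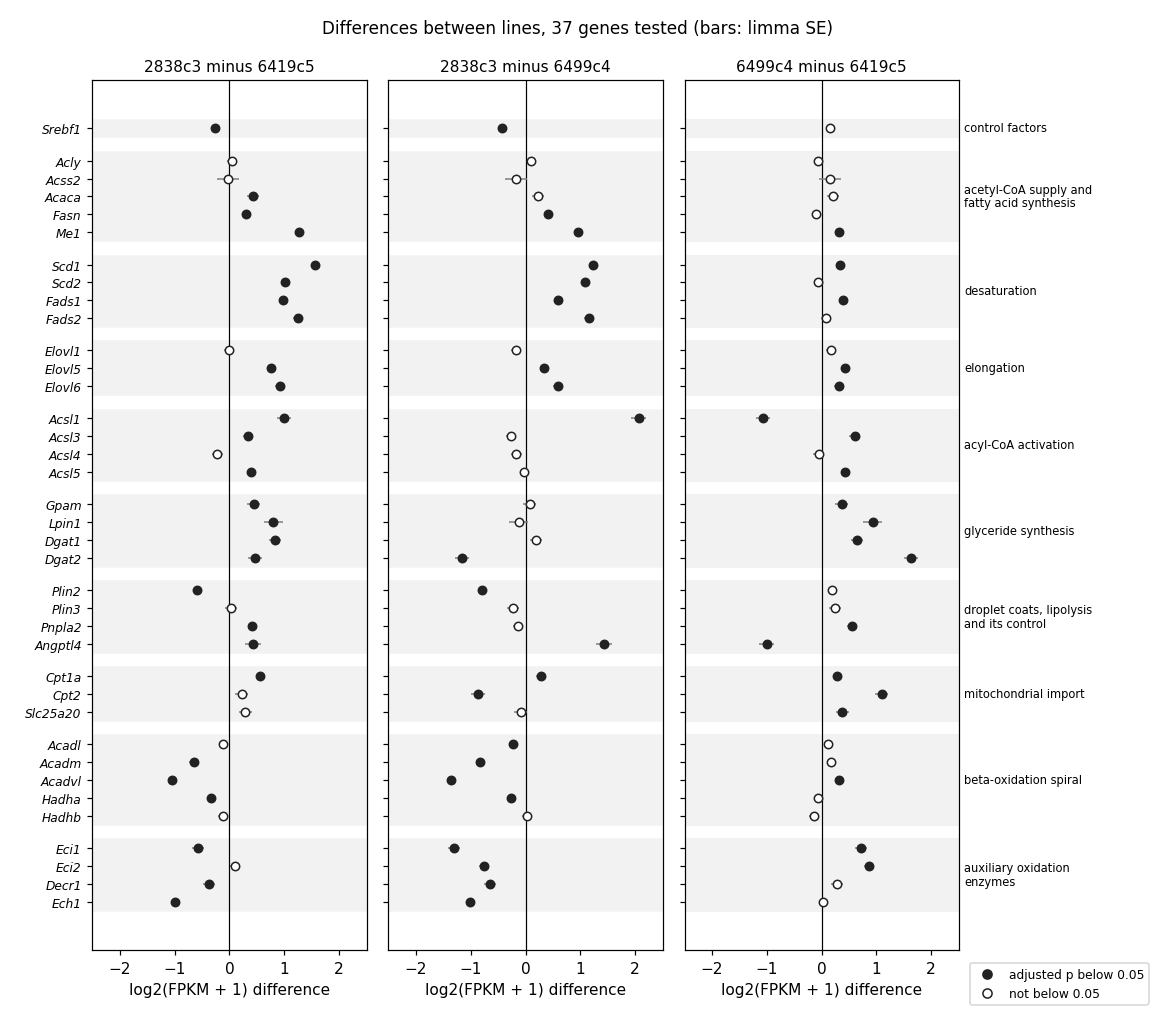
Differences between lines in log2(FPKM + 1) for the 37 members tested, with limma SE as bars and filled points for an adjusted p below 0.05. In the left and middle panels all 4 desaturases lie right of 0 and most oxidation enzymes left of it, and in the right panel all 4 glyceride genes and all 3 import genes lie right of 0.

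Line 2838c3 had the highest levels of desaturases and of Me1. All 4 desaturases were higher in 2838c3 than in either other line, with medians of 1.13 against 6419c5 and 1.12 against 6499c4. Scd1, at 199 and 168 FPKM with G-1 and vehicle in 2838c3 and at 53.7 to 82.3 FPKM in the libraries of the other lines, differed by 1.57 (SE 0.075; limma, adjusted p = 8.96e-06) from 6419c5 and by 1.23 (adjusted p = 1.83e-05) from 6499c4. Fads2 had 137 and 124 FPKM in 2838c3, 57.6 FPKM in both libraries of 6499c4, and 60.8 and 48.4 FPKM in 6419c5, with differences of 1.25 and 1.17. Scd2 differed by 1.01 and 1.08 and Fads1 by 0.98 and 0.59 from 6419c5 and 6499c4. For each of the 4, both libraries of 2838c3 lay above all others. Me1 was also higher in 2838c3, at 146 and 132 FPKM against 70.7 and 72.0 FPKM in 6499c4 and 59.1 and 55.2 FPKM in 6419c5, by 1.27 against 6419c5 and 0.95 against 6499c4.

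The elongases Elovl5 and Elovl6 were higher in 2838c3 as well. Elovl6, which lengthens palmitate to stearate, had 29.1 and 29.5 FPKM with G-1 and vehicle in 2838c3, 19.4 and 18.8 FPKM in 6499c4, and 15.6 and 14.6 FPKM in 6419c5, so that the lines did not overlap. Its differences were 0.91 (SE 0.087) from 6419c5 and 0.59 from 6499c4, and those of Elovl5 0.76 and 0.33. Elovl1, the elongase of very long saturated chains, was called in no pair. Fasn was higher in 2838c3 by 0.30 and 0.41, but with a correction for GC content and gene length these were 0.10 (limma, adjusted p = 0.255) and 0.17 (adjusted p = 0.0738). Acly, Acss2, Acsl4, Plin3 and Hadhb were, like Elovl1, called in no pair of lines. Acly spanned 97.8 to 111 FPKM over all 6 libraries.

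Srebf1 did not share this order. It was lower in 2838c3 than in 6419c5 by 0.26 (SE 0.081; limma, adjusted p = 0.0294) and than in 6499c4 by 0.42 (adjusted p = 0.00354), on the log2 scale. Both libraries of 2838c3, at 56.6 and 40.5 FPKM, lay within or below the range of the other lines of 52.8 to 72.9 FPKM. The call against 6419c5 was lost in 5 of its 18 alternatives. Srebf2, which encodes the sterol-directed relative of SREBP-1, ran the other way, at 138 and 113 FPKM with G-1 and vehicle in 2838c3, 84.9 and 82.1 FPKM in 6499c4, and 80.4 and 74.6 FPKM in 6419c5 (higher by 0.68 and 0.58 against 6419c5 and 6499c4).

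Most oxidation enzymes were lower in 2838c3. Of the 9 enzymes of the spiral and the auxiliary set, 6 were called lower in 2838c3 than in 6419c5, where 26.2% of all genes were, and 8 lower than in 6499c4, where 26.6% were. None was called higher in either pair. Acadvl had 18.1 and 17.0 FPKM with G-1 and vehicle in 2838c3, 46.7 and 46.3 FPKM in 6499c4, and 37.7 and 36.7 FPKM in 6419c5. Its differences were -1.04 (SE 0.078; limma, adjusted p = 6.76e-05) from 6419c5 and -1.36 (adjusted p = 1.37e-05) from 6499c4. Acadm had 27.8 and 24.2 FPKM in 2838c3, 47.6 and 45.9 FPKM in 6499c4, and 41.0 and 41.4 FPKM in 6419c5, and Ech1, given above, differed by -0.996 and -1.02. For these 3 genes, and also for Eci1, Decr1 and Hadha, both libraries of 2838c3 lay below all others.

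Eci1 had 27.9 and 20.5 FPKM in 2838c3, 63.4 and 57.2 FPKM in 6499c4, and 36.4 and 36.1 FPKM in 6419c5, with each line apart from the others. Decr1, at 6.61 and 6.71 FPKM in 2838c3 against 8.50 to 11.4 FPKM elsewhere, differed by -0.37 and -0.66 from 6419c5 and 6499c4, and Hadha by -0.33 and -0.27. Against 6419c5 the call of Decr1 was lost in 4 of 18 alternatives and that of Hadha in 2, and against 6499c4 that of Hadha in 5. Other mitochondrial oxidation genes from the wider list included 7 lower and 3 higher of 15 tested in 2838c3 against 6419c5, and 10 lower and 0 higher against 6499c4. Over all genes, 26.2% were lower and 25.3% higher against 6419c5, and 26.6% and 28.9% against 6499c4. Etfb was furthest apart, at 16.2 and 12.3 FPKM with G-1 and vehicle in 2838c3, 81.0 and 62.2 FPKM in 6499c4, and 89.6 and 73.2 FPKM in 6419c5. Its differences were -2.44 and -2.25 from 6419c5 and 6499c4, the largest in size among the pathway genes listed. Cidec, a droplet fusion protein and also one of the adipocyte markers, differed by 2.40 and 1.90, while 5 of those 7 markers were at 0 in every library.

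Cpt1a, the gate to the same process, was on the other side, higher in 2838c3 by 0.56 (SE 0.087; limma, adjusted p = 0.00147) than in 6419c5 and by 0.28 (adjusted p = 0.0279) than in 6499c4. The call against 6499c4 was lost in 9 of 18 alternatives, among them the GC and length correction, at a difference of 0.13. Acsl1, the synthetase linked to oxidation in muscle and fat, had 11.6 and 12.2 FPKM with G-1 and vehicle in 2838c3, 2.25 and 1.92 FPKM in 6499c4, and 5.16 and 5.78 FPKM in 6419c5, again with each line apart. It was higher in 2838c3 by 0.99 and 2.06, and lower in 6499c4 than in 6419c5 by 1.07. Angptl4 had the same order of lines, with 2838c3 higher by 0.43 and 1.43 against 6419c5 and 6499c4, although the call against 6419c5 was lost in 7 of 18 alternatives. Plin2 ran against it, at 123 and 109 FPKM in 2838c3, 203 and 197 FPKM in 6499c4, and 182 and 168 FPKM in 6419c5, with differences of -0.59 and -0.79.

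All 4 glyceride genes were higher in 2838c3 than in 6419c5, with a median difference of 0.64, and higher in 6499c4 than in 6419c5, with a median of 0.79. The call of Dgat2 in 2838c3 against 6419c5 was lost in 4 of 18 alternatives. Lpin1 had 1.61 to 2.42 FPKM in the libraries of 2838c3 and 6499c4, against 0.834 and 0.562 FPKM with G-1 and vehicle in 6419c5. Dgat1 had 8.53 to 11.4 FPKM in the same libraries, against 5.97 and 5.26 FPKM in 6419c5. Pnpla2, at 18.2 to 25.7 FPKM in 2838c3 and 6499c4 against 17.2 and 13.1 FPKM in 6419c5, was 0.42 (SE 0.087; limma, adjusted p = 0.00568) higher in 2838c3 and 0.56 (adjusted p = 0.00192) higher in 6499c4 than in 6419c5. For these 3 genes, and also for Gpam, Acsl3 and Acsl5, both libraries of 6419c5 lay below all others. Acsl3 and Acsl5 were higher in 2838c3 than in 6419c5, by 0.34 and 0.39, and in 6499c4, by 0.60 and 0.42, although the call of Acsl3 in 2838c3 was lost in 5 of 18 alternatives. Gpam was higher in 2838c3 by 0.44 and in 6499c4 by 0.36, calls that were lost in 5 and 10 of 18 alternatives.

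Line 6499c4 was called above both other lines in Dgat2, Cpt2 and Eci2, and likewise in Acadvl and Eci1, given above. The call of Acadvl in 6499c4 against 6419c5 was lost in 4 of 18 alternatives. Dgat2 had 11.4 and 9.76 FPKM with G-1 and vehicle in 2838c3, 26.7 and 23.2 FPKM in 6499c4, and 9.22 and 5.78 FPKM in 6419c5. It differed by -1.16 in 2838c3 against 6499c4 and by 1.64 (SE 0.128; limma, adjusted p = 8.11e-05) in 6499c4 against 6419c5. Cpt2 had 6.58 and 8.16 FPKM in 2838c3, 14.6 and 13.9 FPKM in 6499c4, and 6.18 and 6.14 FPKM in 6419c5, differences of -0.87 and 1.09. Eci2 differed by -0.76 and 0.86 in the same pairs. In Dgat2, Cpt2, Eci2, Acadvl and Eci1 both libraries of 6499c4 lay above all others. Slc25a20 was 0.38 higher in 6499c4 than in 6419c5, a call lost in 7 of 18 alternatives. Acaca was called in 2838c3 against 6419c5 alone, higher by 0.43 and lost in 4 of 18 alternatives, and Acadl in 2838c3 against 6499c4 alone, lower, with a difference of -0.22 whose call was lost in 8 of 18 alternatives.

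Whether the response to G-1 differs between lines could not be tested, since 1 library per line and treatment leaves no spread within a cell of the design. No source used here gives the strand setting of the counting, and exons of some members overlap those of other genes in the GENCODE annotation. The longest overlaps on the opposite strand were 1151 bases of Acadvl with Dvl2 and 1039 of Acsl1 with Gm45244, which is not among the gene symbols measured. Next came 404 of Acsl5 with Zdhhc6 and 395 of Acss2 with Gss, and Srebf1 shared 109 bases with Rai1. On the same strand Acsl3 shared 244 bases with Utp14b. Reads from these stretches cannot be assigned to 1 of the genes with certainty.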

How the data were processed

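The authors deposited 1 table of FPKM for 24421 gene symbols in 6 libraries. The submitters' processing notes list STAR and DESeq2 without saying what each did. No source used here gives the genome build, annotation, strand setting or counting rule. Within a gene the FPKM moved in equal steps, so whole reads were recovered for all 15712 genes above 0, within 0.01 reads. The library scale had the ratios of median-of-ratios size factors.

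The 10748 genes averaging at least 1 FPKM were tested on the log2(FPKM + 1) scale in limma 3.58.1 (R 4.3.3; variance trend, 2 residual and 5.35 prior degrees of freedom), two-sided, with Benjamini-Hochberg adjustment over all genes and a threshold of 0.05. This log scale understates fold changes of low genes. The line pairs the libraries: after centring by treatment, both libraries of a line correlated at 0.906, 0.882 and 0.871 in 2838c3, 6499c4 and 6419c5. The alternatives were other pseudocounts, filters, scalings and moderation, limma-voom on the reads, a GC content and length correction, and leaving out libraries. Both fits and the recovery of reads were tested on simulated data. The changes planted for the fits were of size 1 or 2 on the log2 scale. These are larger than any difference of a tested member under G-1, so that test does not cover the sizes seen here. 3 reads, which a count of 0 allows, are 0.337 to 0.55 RPM.

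The members and gene lists were chosen with earlier results of these data known. Values in every library were to be given for members past the threshold, for up to 8 members per direction with the same sign in all lines or with the largest called differences between lines, and for the highest and lowest of each step. Of other pathway genes up to 4 per list could be named. One of these is not reported here. Further members given per library under G-1, such as Scd1, Acsl3, Plin3 and Angptl4, were chosen after their values were seen. Promoter windows and exon overlaps come from RefSeq (GRCm38.p6) and GENCODE.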

Additional observations from a re-analysis of the deposited data

Results flagged for a closer look

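In 2 members the read ratio of G-1 to vehicle lay on opposite sides of 1 in different lines, beyond counting error. Acly, the ATP citrate lyase, had a ratio of 1.05 in 2838c3 (95% interval 1.01 to 1.10), 0.933 in 6499c4 (0.892 to 0.976) and 1.09 in 6419c5 (1.03 to 1.14). Acsl4, the synthetase that prefers arachidonic acid, had 0.907 in 6499c4 (0.844 to 0.976) and 1.16 in 6419c5 (1.07 to 1.27). The intervals cover counting error only, and the difference between lines was not tested, as there is 1 library per line and treatment.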

How the results depend on the processing

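The count of members called under G-1, 0 in limma on FPKM, was 6 in limma-voom on the recovered reads and 4 in limma-voom with the GC and length correction. The corrected fit and the leave-one-line-out limma-voom fits were added after the data were seen. With a line left out it lay between 0, in each limma fit on FPKM, and 4, in limma-voom. Every other alternative gave 0. The cell lines pair the libraries, and without this replicate block the count was also 0. The members' median difference kept its sign in all alternatives. Between lines, leaving out a library of either line of a pair lowered the calls over all genes in that pair. A lower count of members called there is therefore not particular to these genes. Without single libraries, members called numbered 13 to 19 in 6499c4 against 6419c5, 18 to 27 in 2838c3 against 6419c5 and 20 to 24 in 2838c3 against 6499c4.

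Calls held in every alternative that gave a value (18, and 17 for Lpin1, which the filter at 5 FPKM removes) for 15 of 27, 17 of 23 and 12 of 20 members called in 2838c3 against 6419c5, 2838c3 against 6499c4 and 6499c4 against 6419c5, and no called difference turned its sign. Under G-1 the sign turned in at least 1 alternative for 10 of 37 members, none of them called in any fit: Acly, Acsl1, Acsl4, Acss2, Angptl4, Cpt2, Elovl1, Elovl5, Hadha and Hadhb. Their differences in limma on FPKM were at most 0.18 in size. The causes were not tested. With 1 library per line and treatment, differences of the size seen under G-1 rest on 3 pairs, and low genes such as Lpin1 are limited by depth.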
